A study of Daphnia magna with 84 samples.

Results

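The change in gene expression over the last week of sampling, from day 17 to day 24, was described in exposed water fleas (Daphnia magna). The comparison took every library at the low concentrations (0.015, 0.06 and 0.12 nM Hg/L) and the high concentrations (0.25, 1 and 4 nM Hg/L) on day 17 (18 libraries) or day 24 (18 libraries). These are 36 of the 84 libraries of the series and 36 of its 72 exposed libraries, in 12 groups of 3. The animals at concentration 0 were not used, so a change with age and a change with longer exposure cannot be told apart here. Each library was made from the RNA of 1 whole animal. All 12 groups shared the exposure by diet: green algae (Chlamydomonas reinhardtii) were first held in a coal ash mixture and then fed to the animals. The concentrations are named by mercury but stand for the whole set of coal ash constituents. The labels give no strain and no brood stage for the animals taken for RNA, and no tissue within the animal. In whole animals, fewer cells of a type and less RNA per cell cannot be told apart. The p-values of edgeR below set a change against the spread between these single animals. In the comparison averaged over concentrations, that spread also takes in differences of the day change among concentrations.

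Daphnia magna is a small freshwater crustacean that reproduces mostly without males, as a clone, and carries its embryos in a brood pouch. An adult female releases a brood, moults and lays the next clutch in a repeating cycle, so females of the same age can be at different points of it. In crustaceans the moult is driven by ecdysteroid hormones, and the yolk protein precursor vitellogenin is made during egg production. The files give no gene names for their model IDs, and a search for those IDs in the RefSeq gene table found 0. Each gene model is therefore given by ID and position, and nothing is said of what it encodes.

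Total counts ran from 12484351 to 16675899 per library on day 17 and from 11759656 to 20067892 on day 24, with the mean log2 total higher by 0.17 on day 24 (permutation test within concentrations, two-sided, p = 0.00508). A set of 5 gene models held most counts in every library, and the remaining counts are the depth behind all other values. Outside those 5, the 3 libraries labelled 0.12 nM Hg/L, day 24, held 408047 to 601797 counts, and the other 33 held 673117 to 2005069. The mean log2 count outside the 5 models was lower by 0.08 on day 24 (20.2 ± 0.69, SD, n = 18) than on day 17 (20.3 ± 0.41, SD, n = 18; permutation test within concentrations, two-sided, p = 0.629). Without 0.12 nM Hg/L it was higher by 0.16. The library labelled 0.06 nM Hg/L, day 24, replicate 3, has a title number from the run of numbers otherwise used at 0.12 nM Hg/L, and 1 library at 0.12 nM Hg/L, day 24, shares its title number with a day 6 library; both were kept as labelled.

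The 3 animals at 0.12 nM Hg/L on day 24 stood apart from the other 33, without overlap, on each of the following measures of the library. Only 2.22% to 3.03% of their counts fell outside the 5 most abundant models, against 4.04% to 13.7% in the others. They had counts for 7810 to 9731 of the tested models, against 10346 to 11446. APZ42_004030, 1 of the 5, took 34.7%, 39.6% and 44.1% of their counts, against 11.98% to 26.8% in the other 33 animals, and the ranges did not overlap. APZ42_024615, another of the 5, took 11.6% to 14.7% of their counts, against 15.6% to 39.6%. The scaling factors (trimmed mean of M-values, TMM) of the 3 libraries were 0.141 to 0.252, below the 0.397 to 2.38 of the others. Because of this, the main edgeR counts of calls averaged over concentrations or compared among them are given below with and without 0.12 nM Hg/L. Several counts from alternative settings are given only with that concentration. The intervals, sums of squares and principal components include it.

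**Figure D1:**
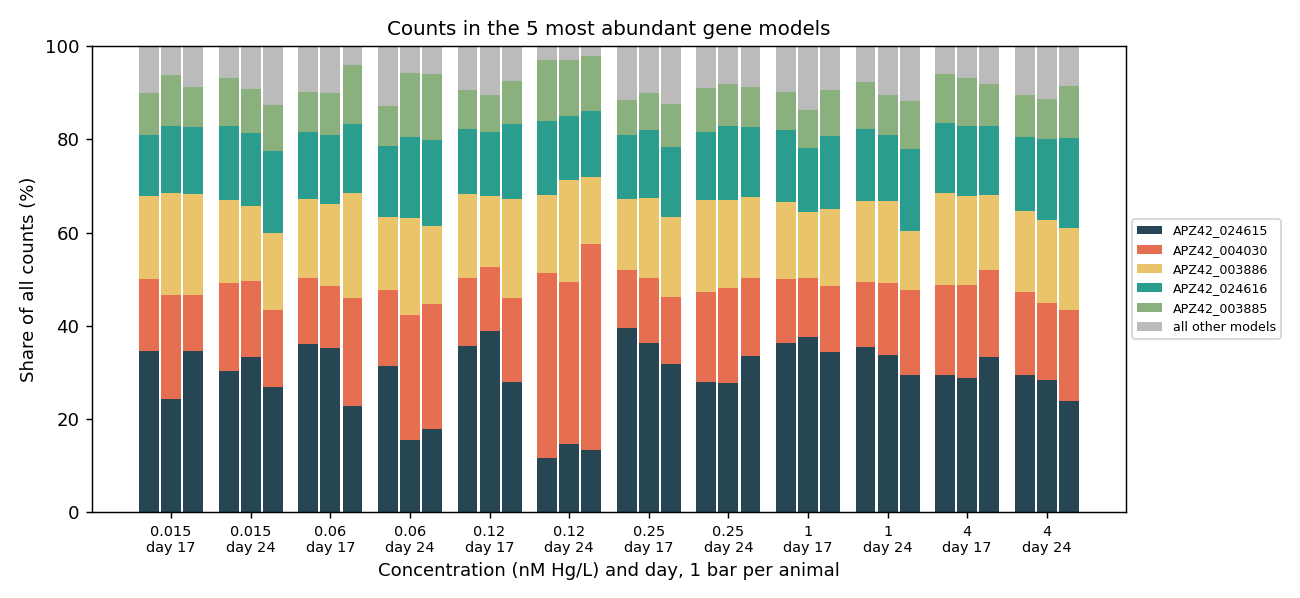
Share of all counts (percent, y axis) held by each of the 5 most abundant gene models and by all other models, 1 stacked bar per animal, grouped by concentration (nM Hg/L) and day. The 3 bars at 0.12 nM Hg/L, day 24, have 34.7% to 44.1% in APZ42_004030 and at most 3.03% outside the 5 models.

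Few gene models were called by edgeR for a common change at the 6 concentrations between day 17 and day 24, and the number depended on the fit. In the additive fit, with concentration as a blocking factor, 12 of 11526 tested models passed an adjusted p of 0.05 (0.104%; edgeR's quasi-likelihood test with Benjamini-Hochberg adjustment). All 12 were higher on day 24. None was lower, while at an unadjusted p below 0.05 there were 1269 models (11% of those tested), 793 higher and 476 lower. Without 0.12 nM Hg/L the unadjusted counts were 661 higher and 239 lower (900 of 11341 tested). DESeq2 called 114 higher and 7 lower, and limma-voom called 13 higher and 0 lower. Other edgeR fits called lower models too: 209 higher and 133 lower with all 72 exposed libraries fitted, and 116 higher and 92 lower from group means. Both of these fits included 0.12 nM Hg/L and were not run without it. No model separated all 18 animals of day 24 from all 18 of day 17.

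The intervals of most models were narrow. The median standard error of a log2 change was 0.26, and the 95% interval lay between a halving and a doubling, within -1 to 1 on the log2 scale, for 7828 models (67.9%). It lay within -2 to 2 for 10821 models (93.9%). The median log2 change over all tested models was -0.03. The estimated change was beyond 1 in either direction in 439 models (3.81%), and its sign was the same at all 6 concentrations in 484, of which 283 were higher and 201 lower. Some models would share a sign at all 6 without any day change. How many was not computed, so the count of 484 is only a description.

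The 12 called models were of low to moderate abundance, with means of 0.995 to 10.7 CPM (the usual scaled count, here on the TMM-adjusted library size), and their log2 changes ran from 0.47 to 1.39 with a median of 1.04. Of them, 9 lay on scaffolds and 3 on contigs, and 2 had a single exon. Only APZ42_026321 reached the mean of 5 CPM that the rule for named models asks for, and the other 11 were chosen after their values were seen. Each had a higher fitted value on day 24 at all 6 concentrations, and the smallest adjusted p for a difference of their change among concentrations was 0.435. Both are in part fixed by the choice, since the additive fit of the same animals favours models with a like change at every concentration.

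APZ42_026321 (scaffold02066, 333984 to 336407, minus strand, 2 exons) had the highest mean of the 12. On day 17 its lowest, median and highest values were 6.95, 8.93 and 11.2 CPM, and on day 24 they were 8.47, 11.3 and 20.7 CPM. The days overlapped, but 16 of 18 animals of day 24 lay above the day 17 median and 10 lay above the highest animal of day 17. Its log2 change was 0.47 (SE 0.10, adjusted p = 0.0466), the smallest of the 12. By concentration the fitted change ran from 0.23 (SE 0.24) at 0.015 nM Hg/L to 0.85 (SE 0.25) at 4 nM Hg/L. When counts were scaled to the library total alone its change was -0.04 (adjusted p = 0.933).

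APZ42_026976 (scaffold02140, 253762 to 257416, plus strand, 10 exons) had the smallest p of all models. It had 1.23, 2.42 and 4.23 CPM on day 17 (lowest, median and highest of 18) and 2.38, 3.99 and 7.59 CPM on day 24. Of the day 24 animals, 17 were above the day 17 median and 8 above its maximum. The log2 change was 0.80 (SE 0.13, adjusted p = 0.00955), with values from 0.54 at 1 nM Hg/L to 1.11 at 0.12 nM Hg/L.

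APZ42_000776 covers the first 1294 bases of contig04209 (minus strand, 5 exons). It rose from a median of 2.15 CPM (range 0.604 to 4.06) to 3.68 CPM (range 2.08 to 8.38), by 1.06 on the log2 scale (SE 0.19, adjusted p = 0.0129). The largest change was 1.80 (SE 0.47) at 4 nM Hg/L and the smallest 0.74 (SE 0.45) at 1 nM Hg/L. APZ42_000971, on contig05142 (3 exons), was the only one of the 12 in which all 18 animals of day 24 lay above the day 17 median. Its median was 0.905 CPM on day 17 (range 0.0969 to 2.46) and 1.80 CPM on day 24 (range 1.12 to 5.22), a log2 change of 1.23 (SE 0.24, adjusted p = 0.0186).

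APZ42_017370 (scaffold00687, 659787 to 661221, single exon) was the least abundant of the 12. Its median was 0.544 CPM on day 17 and 1.16 CPM on day 24, with a log2 change of 1.20 (SE 0.22, adjusted p = 0.0151) and a median of 14 counts per library. APZ42_020657 and APZ42_020791 lie on the same scaffold (scaffold01005), at 710662 to 712465 and at 1260949 to 1264507. The first had medians of 2.82 and 4.91 CPM (log2 change 1.03, SE 0.19, adjusted p = 0.0151) and the second of 1.70 and 2.90 CPM (log2 change 0.87, SE 0.18, adjusted p = 0.0422). In both, 1 animal of day 17 was above the day 24 median.

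APZ42_016049 (scaffold00568, 1398940 to 1401412, 9 exons) had the largest change of the 12, 1.39 (SE 0.29, adjusted p = 0.0412), and also the widest spread between animals of a group (SD 0.90 on the log2 scale). Its values ran from 0.151 to 2.88 CPM on day 17 and from 0.418 to 4.87 CPM on day 24. The clearest separation of animals was in APZ42_014730 (scaffold00475, 1 to 1705) and APZ42_015338 (scaffold00512, 2873145 to 2874937). In each of these, 12 of 18 animals of day 24 were above the highest animal of day 17, and none of day 17 was above the day 24 median. Their log2 changes were 0.72 (SE 0.15, adjusted p = 0.0412) and 0.63 (SE 0.14, adjusted p = 0.0466). APZ42_013967 and APZ42_005571 completed the set with log2 changes of 1.08 (SE 0.22, adjusted p = 0.0344) and 1.14 (SE 0.24, adjusted p = 0.0412).

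**Figure D2:**
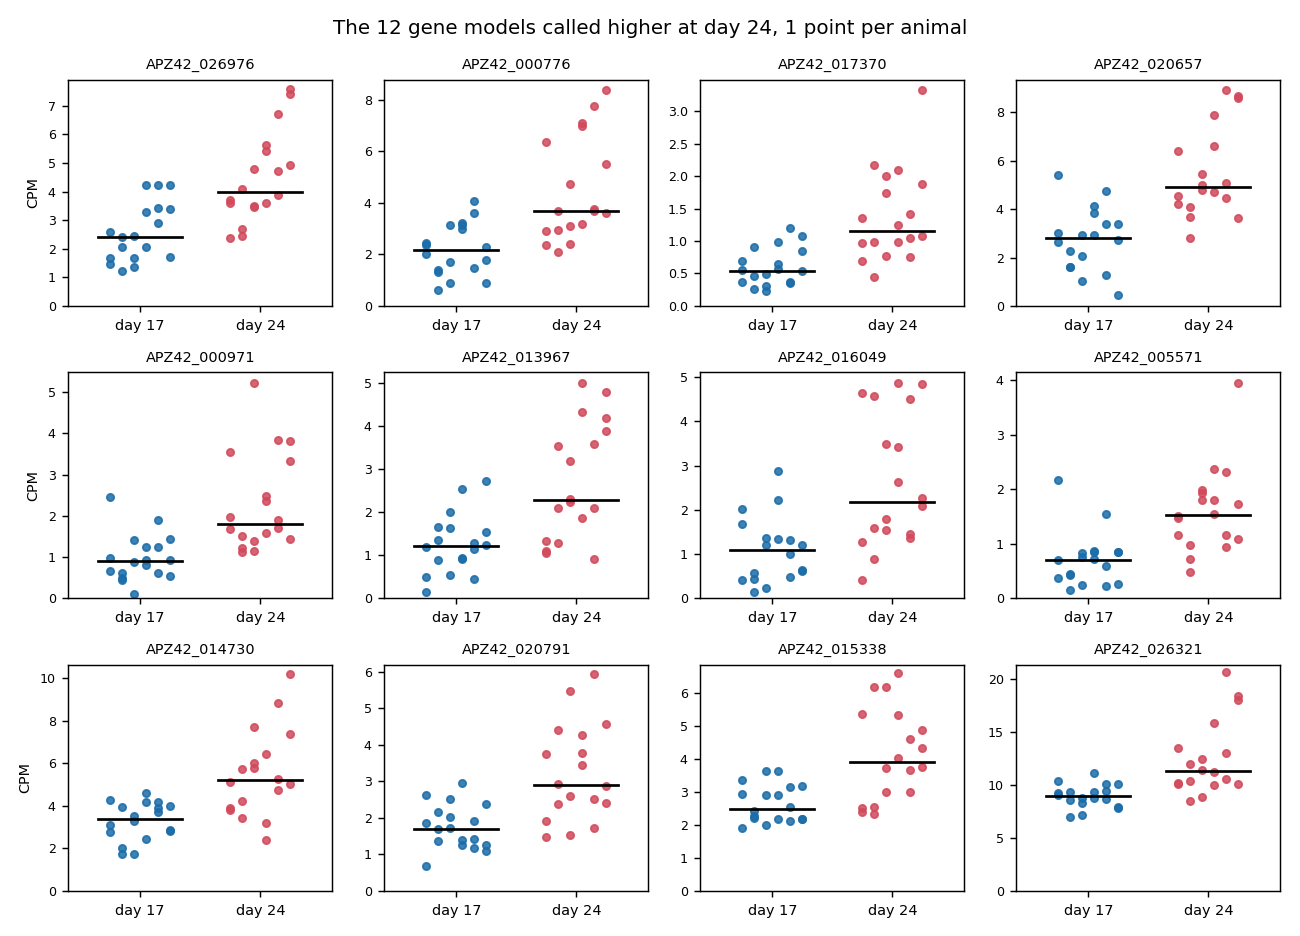
CPM on a linear axis of the 12 gene models called higher on day 24, 1 point per animal (18 per day), with concentration rising from left to right within a day and the median as a line. The days overlap in every model, with 3 to 12 of the 18 animals of day 24 above the highest animal of day 17.

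Over the 4 sampling days of the exposed animals, the mean of each of the 12 models was highest on day 24. This is in part fixed by how the models were chosen, since the day 24 and day 17 libraries chose them. The lowest mean was on day 6 in 8 models and on day 17 in the other 4, and the day 10 mean was above the day 17 mean in 11. A low day 17 mean is in part fixed by the same choice. The order of day 10 and day 17 is therefore only a description, and its share over all tested models is not given here. APZ42_020657, for example, had means of 1.28, 3.20, 2.75 and 5.54 CPM on days 6, 10, 17 and 24. APZ42_020791 instead had 3.12, 2.86, 1.75 and 3.22 CPM, with day 24 and day 6 near each other.

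The calls of the 12 models depended on which concentrations were included and on the scaling of the libraries. Without 0.015 nM Hg/L, 11 of the 12 stayed called among 23 calls. Without 0.12 nM Hg/L, 3 models were called, of which 2, APZ42_000776 (log2 change 1.10, SE 0.20, adjusted p = 0.0234) and APZ42_000971 (1.14, SE 0.20, adjusted p = 0.0192), were among the 12. The other, APZ42_026926 (scaffold02140, 134742 to 142078, 13 exons), had an adjusted p of 0.0615 with 0.12 nM Hg/L included and 0.0180 without it. It was higher on day 24 without overlap of the 3 and 3 animals at 0.25 nM Hg/L, where day 17 had 5.27, 4.995 and 7.42 CPM and day 24 had 18.1, 22.1 and 15.1 CPM. At 0.12 nM Hg/L its animals overlapped, with 9.16, 21.0 and 14.5 CPM against 8.71, 14.99 and 10.03 CPM. No model was called without 0.06 nM Hg/L (edgeR, 1186 at an unadjusted p below 0.05) or without 4 nM Hg/L (1281), but all 12 stayed higher, with a median log2 change of 1.02 and 0.91 and adjusted p of at least 0.05005 and 0.0699. When libraries were scaled to their total counts, or to their counts outside the 5 most abundant models, none was called either, although 11 and 12 of the 12 kept a positive change. The median change of all tested models was then -0.44 and -0.27, and the median of the 12 lay above it by 1.03 under both, against 1.07 with TMM.

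Animals of the same group differed widely. Of the sum of squares of log2 CPM, the median model had 56.04% within groups, 20.5% between concentrations, 17.2% in the combination of concentration and day, and 2.34% between days. Their shares of the degrees of freedom are 68.6%, 14.3%, 14.3% and 2.86%. The median shares of concentration and of the combination were thus above their shares of the degrees of freedom, and that within groups was below. For day the 2 values cannot be set against each other. A share of the degrees of freedom is the mean without any effect, and the skewed day share would then have a lower median. In the 12 called models, which were chosen for their day change, day held 31.1% to 42.9%. The median spread between animals of a group was 0.67 (SD, log2), and 294 models (2.55%) had a spread above 2.

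The widest spreads came from models with nearly no counts in some animals and many in others of the same group. APZ42_015745 (scaffold00568, 13576 to 20162, 3 exons) had 0.139, 5.52 and 160 CPM in the 3 animals at 0.015 nM Hg/L on day 17, and 0.209, 1.27 and 211 CPM on day 24. At 0.25 nM Hg/L it had 1.33, 181 and 0.323 CPM on day 17 and 19.2, 0.270 and 114 CPM on day 24. High and low animals were present on both days, and its log2 change of 2.35 had an SE of 1.24 (adjusted p = 0.488). APZ42_034076 (scaffold03326, 310052 to 313185, 4 exons) ranged from 0.298 to 179 CPM on day 17 and from 0.276 to 1216 CPM on day 24. Its 3 animals at 0.12 nM Hg/L had 36.4, 0.417 and 0.651 CPM on day 17 and 708, 411 and 1216 CPM on day 24, without overlap, with an adjusted p of 0.0707 at that concentration. APZ42_015745 was chosen after its values were seen, for its spread, and APZ42_034076 because earlier work on these data had singled it out. APZ42_026945 (scaffold02140, 61922 to 63057, 2 exons), chosen for its spread in the same way, had 89.95 and 223 CPM in 2 animals of day 17 and at most 0.906 CPM in the other 16. On day 24 it had 172, 135 and 89.6 CPM in 3 animals and at most 6.22 CPM in the other 15, with a log2 change of 2.17 (SE 1.12, adjusted p = 0.483).

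Day accounted for little of the main axes of variation. Principal components 1, 2 and 3 of log2 CPM held 21.4%, 19.4% and 12.6% of the variance, and day accounted for 0.864%, 2.99% and 8.36% of the values along them. Concentration accounted for 25.9%, 27.9% and 34.0%, and the 12 groups for 48.2%, 52.4% and 69.8%. Day holds 2.86% of the degrees of freedom, concentration 14.3% and the 12 groups more, so these values are not directly comparable. The 3 animals at 0.12 nM Hg/L on day 24 were at 57.5 to 113 on component 3 and all others at -43.8 to 43.7. By the correlation of log2 CPM, 15 of 18 animals of day 17 were closer to their own group than to the animals of the same concentration on day 24. On day 24 this held for 8 of 18. At 0.12 nM Hg/L it held for all 3 animals of each day.

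**Figure D3:**
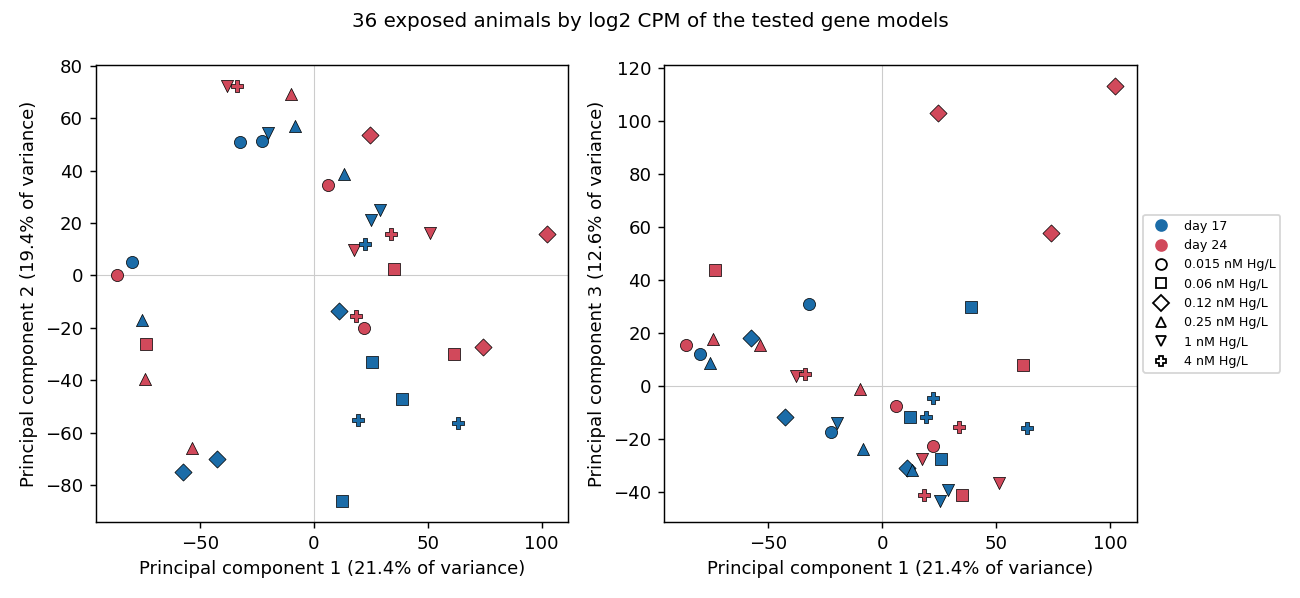
Principal components 1 and 2 (left) and 1 and 3 (right) of log2 CPM of the tested models in the 36 animals, coloured by day and with the marker by concentration. Days are mixed along the first pair of axes, and the 3 day 24 animals at 0.12 nM Hg/L lie above 57 on component 3.

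The day change was then compared at the 6 concentrations. It differed among them in 391 models (3.39% of those tested) by the joint test of the interaction (edgeR, adjusted p below 0.05), and 346 of these had their largest absolute change at 0.12 nM Hg/L, as did 53.4% of all tested models. Without that concentration the same test called 0 models, with 948 at an unadjusted p below 0.05; DESeq2 then called 0.317% of models and limma-voom 0. No model passed the test of a slope of the day change on the rank of concentration (edgeR, 0 called, 866 or 7.51% at an unadjusted p below 0.05, smallest adjusted p = 0.209). DESeq2 called 22 for that slope and limma-voom 0. Without 0.12 nM Hg/L, edgeR called 0 for it (740 at an unadjusted p below 0.05), DESeq2 7 and limma-voom 0.

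Within single concentrations, edgeR called models at 0.12 nM Hg/L and at no other. There 2599 models passed (22.5% of those tested, with 36.9% at an unadjusted p below 0.05), 782 higher (6.78%) and 1817 lower (15.8%) on day 24. The split depended on the tool and the scaling: 30.1% of the calls were higher in edgeR with TMM, 34.5% with DESeq2 size factors, 48.2% in limma-voom (1024 of 2126) and 53% in DESeq2 (856 of 1616). Scaled to total counts it was 0.313% (30 of 9596), and scaled to the counts outside the 5 models 3.34% (209 of 6253). The median change of all models at 0.12 nM Hg/L was -0.47 with TMM, -3.34 per total count and -1.69 per count outside the 5 models. Of the 1817 lower calls, 384 had no count in any of the 3 day 24 animals, whose depth outside the 5 models was the lowest of the 36. With the log2 of that depth as a covariate 521 models were called, and the median change went from 1.87 to 1.602 in the 782 higher calls and from -2.22 to -1.83 in the 1817 lower ones. Since these 3 libraries have the lowest depths of the 36, depth and the group cannot be told apart.

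At the other 5 concentrations edgeR called 0 models each, and at an unadjusted p below 0.05 the counts were 437 at 0.015, 711 at 0.06, 765 at 0.25, 266 at 1 and 1350 at 4 nM Hg/L (3.79%, 6.17%, 6.64%, 2.31% and 11.7%). DESeq2 called 2, 4, 17, 1 and 98 models there, and limma-voom called 2 at 0.25 nM Hg/L and none at the other 4. With 2 surrogate variables edgeR called 54 at 4 nM Hg/L. The median SE of a change within 1 of these concentrations was 0.589 to 0.604. Models in which the 3 animals of each day did not overlap made up 11% (higher) and 25.8% (lower) of those tested at 0.12 nM Hg/L. The higher ones were 4.92%, 4.52%, 5.32%, 4.75% and 6.8% at 0.015, 0.06, 0.25, 1 and 4 nM Hg/L, and the lower ones 3.98%, 4.6%, 9.35%, 4.35% and 8.53%. Both shares were thus at least as high at 0.12 nM Hg/L as at any other concentration.

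**Figure D4:**
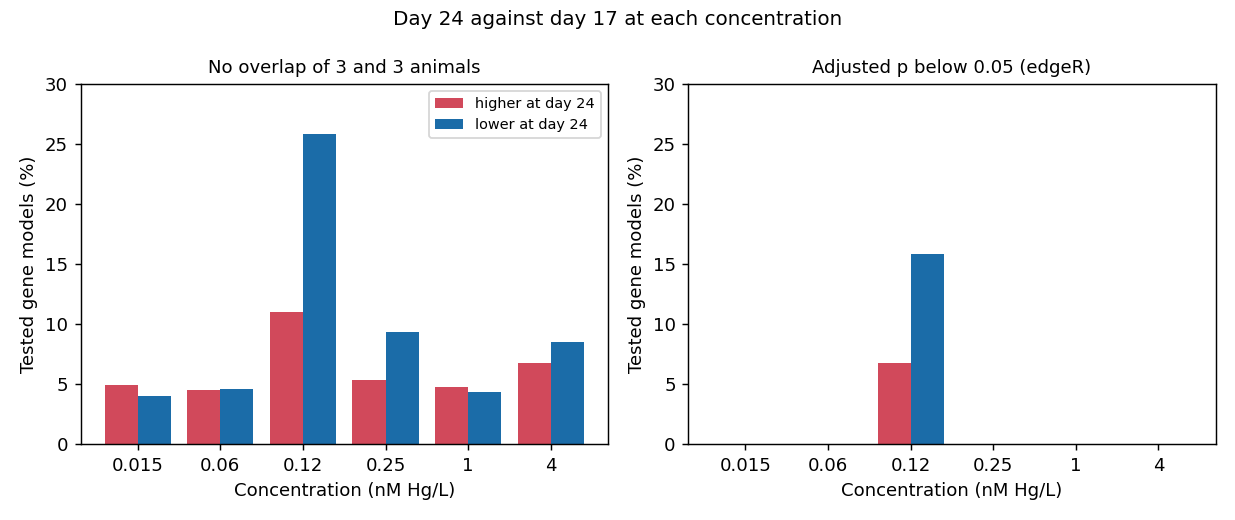
Percentage of the tested gene models that were higher or lower on day 24 than on day 17 at each concentration, by absence of overlap between the 3 and 3 animals (left) and by an adjusted p below 0.05 in edgeR with TMM scaling (right). Only 0.12 nM Hg/L has calls on the right, 6.78% higher and 15.8% lower.

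The models called at 0.12 nM Hg/L were chosen by their change there, so a smaller change at the other concentrations is in part fixed by the choice, and the following values are a description. The median log2 change of the 782 higher calls was 1.87 at 0.12 nM Hg/L, and the median of their mean change at the other 5 concentrations was 0.10. For the 1817 lower calls these values were -2.22 and -0.02. Of the 12 models called in the average, 4 were also called at 0.12 nM Hg/L, beside 22.5% of all tested models. Among these, APZ42_014730 had a change of 1.19 there and 1.23 at 4 nM Hg/L. Of the 391 models in which the day change differed among concentrations, 363 were also called at 0.12 nM Hg/L, beside the same 22.5%. The averaged fit and the joint test both use the 0.12 nM Hg/L animals, so both overlaps are in part fixed.

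APZ42_022001 (scaffold01348, 123580 to 150789, plus strand, 21 exons) was the lower model with the smallest p at 0.12 nM Hg/L. It had 87.9, 84.8 and 62.8 CPM on day 17 and 8.71, 12.8 and 13.1 CPM on day 24, with no overlap. Its log2 change was -2.77 (SE 0.33, adjusted p = 9.67e-06), and it was lower by TMM, per total count (-5.78) and per count outside the 5 models (-4.02). Relative to the median change of all models under each scaling it was -2.30, -2.45 and -2.33. At the other concentrations its change ran from -1.02 (SE 0.31) at 0.06 to 0.51 (SE 0.31) at 4 nM Hg/L, and its change differed among concentrations (interaction adjusted p = 0.00266).

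APZ42_010849, APZ42_015452 and APZ42_016991, the next lower models by p, fell by 1.79 (SE 0.27), 2.05 (SE 0.32) and 1.90 (SE 0.30) on the log2 scale at 0.12 nM Hg/L, with adjusted p from 7.60e-05 to 1.00e-04. In APZ42_015452 the counts were 206, 351 and 213 on day 17 and 9, 19 and 6 on day 24, which show how few counts stand behind the day 24 values. All 3 were lower by every scaling compared. At the other 5 concentrations their changes lay between -0.35 and 0.59.

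The higher models with the smallest p at 0.12 nM Hg/L were higher only relative to the other models of the same libraries. APZ42_016054 (scaffold00568, 1236836 to 1256137, minus strand, 9 exons) had 81, 68 and 40 counts on day 17 and 74, 79 and 31 on day 24. As CPM on the TMM-scaled size these were 3.93, 2.36 and 2.37 against 18.4, 15.8 and 11.96, with no overlap and a log2 change of 2.41 (SE 0.29, adjusted p = 9.67e-06), but per total count its change was -0.50 (adjusted p = 0.348). Per count outside the 5 models the change was 1.21 (adjusted p = 0.00164). Set against the median change of all models, it was 2.88 with TMM, 2.84 per total count and 2.90 per count outside the 5 models.

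APZ42_016102, on the same scaffold (1569413 to 1575305, 9 exons), APZ42_028575 (scaffold02452, 192270 to 207464, 10 exons) and APZ42_020222 (scaffold00944, 2022432 to 2026891, 8 exons) were also higher with TMM and not per total count. Their log2 changes with TMM were 2.15 (SE 0.26), 2.32 (SE 0.31) and 1.64 (SE 0.21), with adjusted p of at most 2.12e-05, and per total count they turned to -0.89 (adjusted p = 0.0508), -0.64 (0.177) and -1.41 (0.00889), so that APZ42_020222 was called lower. Per count outside the 5 models they were 0.87 (adjusted p = 0.00468), 1.10 (0.00286) and 0.37 (0.252). At the other 5 concentrations their changes with TMM lay between -0.48 and 0.54. These 8 models are the 4 higher and 4 lower with the smallest p at 0.12 nM Hg/L and were chosen after their values were seen.

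**Figure D5:**
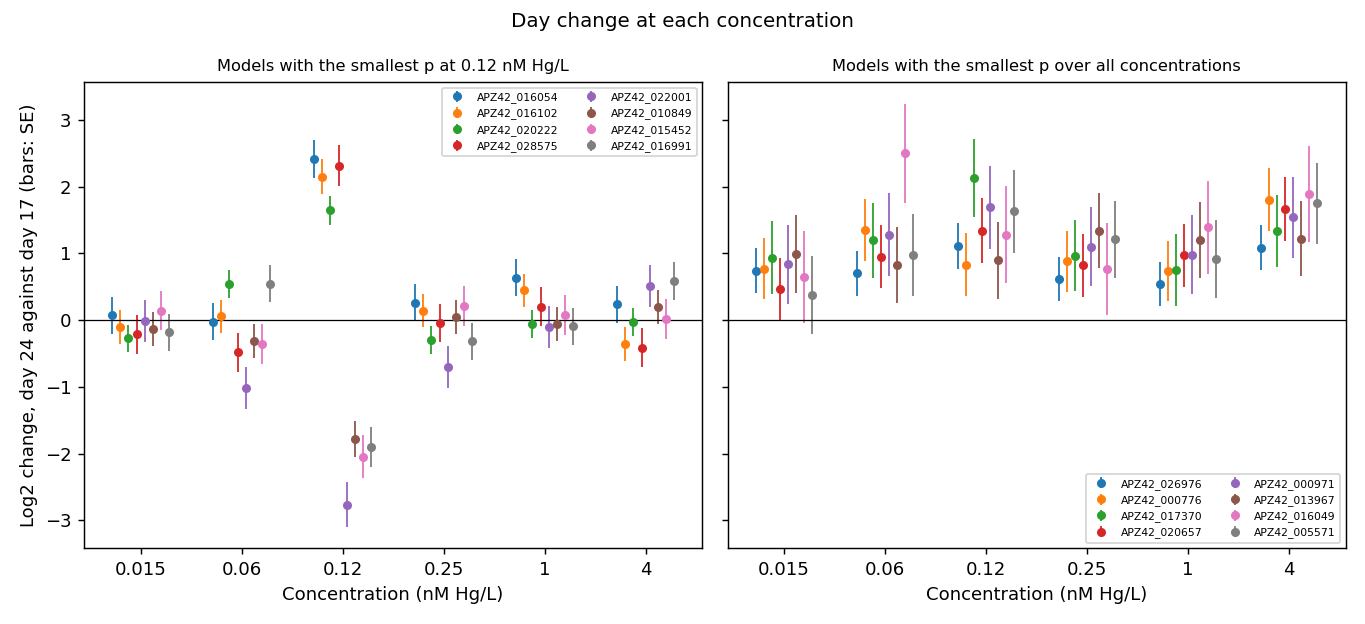
Log2 change, day 24 against day 17, at each concentration (points, bars are SE, TMM scaling) for the 8 models chosen by p at 0.12 nM Hg/L (left) and for the 8 models with the smallest p over all concentrations (right). On the left the changes reach 2.41 and -2.77 at 0.12 nM Hg/L and stay between -1.02 and 0.63 elsewhere. On the right all are above 0. Both patterns are in part fixed by how the models were chosen.

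The rule for named models, which takes the largest changes within a concentration, gave APZ42_017566 and APZ42_022036. APZ42_017566 (scaffold00687, 1766030 to 1767498, 4 exons) had 0, 0 and 4 counts on day 17 and 1030, 11 and 21 on day 24 at 0.12 nM Hg/L, so 1 animal held nearly all of the difference. Its adjusted p was 0.0263, and without that animal (day 24, replicate 1) it was 0.138 with a log2 change of 6.06 in place of 10.19. The call was also lost without any 1 of the day 17 animals (adjusted p = 0.0822, 0.103 and 0.0616), in limma-voom (0.234), with the depth covariate (0.140) and with no filter (0.0554). At 0.015 nM Hg/L it had 16.3, 96.6 and 3.76 CPM on day 17 and 10.8, 0.0579 and 1.18 CPM on day 24, and at 4 nM Hg/L its day 24 values were 206, 0.360 and 0.620 CPM.

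APZ42_022036 (scaffold01348, 6437 to 8555, 2 exons) had 8, 178 and 611 counts on day 17 and 1, 1 and 0 on day 24 at 0.12 nM Hg/L. Per scaled library size the day 17 level was 69.8 times that of day 24, with a counting interval of 19.3 to 577 (exact, 95%). That interval pools the counts of the animals of each day and leaves out the spread between animals. The adjusted p was 0.00480. The call was lost in limma-voom (adjusted p = 0.195), with 2 surrogate variables (0.401), with the depth covariate (0.0557) and without the day 17 animal that held 611 counts (replicate 3, 0.0572). At 0.25 nM Hg/L the order was the opposite, with 2, 2 and 1 counts on day 17 and 613, 1 and 39 on day 24. Its change differed among concentrations (interaction adjusted p = 0.00551). In both models a few animals had high values and the others nearly none, as in the models of widest spread above.

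Of the 5 most abundant models, none passed the test averaged over concentrations, and shares of total counts are given because their scaled CPM exceeds the whole of the scaled library where the rest of the library is small. APZ42_004030 was the only one that passed the joint test of a day change differing among concentrations (interaction adjusted p = 0.0328). For APZ42_003885, APZ42_003886, APZ42_024616 and APZ42_024615 that adjusted p was 0.0673, 0.0883, 0.0986 and 0.194. At 0.12 nM Hg/L it took 14.5%, 13.8% and 17.99% of counts on day 17 and 39.6%, 34.7% and 44.1% on day 24, and APZ42_024615 took 35.8%, 38.8% and 28.1% on day 17 and 11.6%, 14.7% and 13.4% on day 24. As a share the first was higher, and the second lower, in all 3 animals of day 24. On the TMM scale both were higher on day 24, by 4.38 (SE 0.78, adjusted p = 0.000362) and 1.67 (SE 0.49, adjusted p = 0.0167).

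By class of gene model, 2 of 1150 models with a single exon were called higher in the averaged comparison (0.174%), 3 of 939 on contigs (0.319%) and 0 of 73 with at least 30 exons, beside 0.104% of all tested. Without 0.12 nM Hg/L these were 0, 2 (0.213%) and 0, beside 0.026%. At 0.12 nM Hg/L the models with at least 30 exons had 15 of 73 called higher (20.5%, beside 6.78% of all tested) and 6 lower (8.22%, beside 15.8%), with a median log2 change of 0.17 beside -0.47 for all tested; the counts of all models there depend on the scaling as given above. Runs of at least 5 neighbouring tested models called in the same direction occurred once in each direction at 0.12 nM Hg/L. The higher run lay on scaffold02227, 79233 to 192225, with a median of 2.32, and the lower on scaffold02994, 296933 to 328342, with a median of -1.74. The median, over the models of each run, of their mean change at the other 5 concentrations was -0.08 and -0.02. The runs were chosen by their calls at 0.12 nM Hg/L, so a smaller change elsewhere is in part fixed.

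Stretches of neighbours on 3 scaffolds, chosen in earlier work on these data from a comparison that used the same day 24 libraries, were also followed. None of their 16, 12 and 10 tested models (scaffold02581, scaffold01409 and scaffold00568) was called in the averaged comparison, beside 0.104% of all tested. Their median log2 changes were 1.16, 0.71 and 2.28 with 0.12 nM Hg/L, beside -0.03 for all tested. Without it they were 0.73, 0.65 and 1.54, beside 0.03. At 0.12 nM Hg/L, 6 of 16 (37.5%), 1 of 12 (8.33%) and 4 of 10 (40%) were called higher, beside 6.78% of all tested. Their medians there were 3.72, 2.74 and 5.10, beside -0.47. These values are in part fixed, since the choice used the same day 24 libraries. Mean log2 CPM of the scaffold00568 stretch ran from -2.64 to 1.10 over the animals of day 17 and from -2.23 to 3.39 over those of day 24, so the days overlapped widely.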

How the data were processed

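Whole-animal RNA was sequenced after ribosomal RNA depletion with a kit that marks strand, per the labels' protocols. The submitters' processing notes name the aligner STAR 2.7.5b. How reads were counted, with which strand setting and on which genome build, is not given in the sources used. Overlapping, antisense and near-identical models may therefore share counts. The authors deposited whole-number counts per gene model (27350 models, no row without a model), not normalized, with coordinates as the file gives them.

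The 36 libraries were grouped by the concentration and day in the labels, and replicate numbers only name animals. The filter on low counts was filterByExpr with the 12 groups (minimum count 10, 11526 models kept), and scaling used TMM factors over the 72 exposed libraries. The test was edgeR 4.0.16 (R 4.3.3), quasi-likelihood with robust shrinkage and no separate dispersion step. The day change used an additive fit of concentration and day (29 residual degrees of freedom). Differences among concentrations, the slope on rank and the changes within a concentration used 12 group means (24 residual degrees of freedom). Benjamini-Hochberg adjustment ran over all tested models, and calls lie below 0.05. An adjusted p with no tool beside it is from edgeR. SE values derive from the change and its F statistic. Principal components and sums of squares used log2 CPM with a prior count of 2. Depth was compared by 100000 permutations of the days within concentrations.

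The rule for named models takes, among called models that average at least 5 CPM, the 2 highest and 2 lowest by change and by p with the same sign at all 6 concentrations (by change also among those of at least 100 CPM), the 2 highest and 2 lowest slopes, the highest and lowest within each concentration, and the 5 most abundant models. Other named models were chosen after their values were seen. The members and lists were chosen with earlier results of these data known. Lists by descriptive name could not be formed. Alternatives used DESeq2 1.42.0, limma-voom (limma 3.58.1) with quality weights, sva 3.50.0, an older edgeR fit, other scalings and filters, and left-out libraries or concentrations. The scaling to total counts or to counts outside the 5 models, and both other tools without 0.12 nM Hg/L, were chosen after seeing the data. The scripts were tested on simulated data. The counting interval covers counting error only.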

Additional observations from a re-analysis of the deposited data

Results flagged for a closer look

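The day change differed among concentrations by the joint test in 391 models, and these results are listed because the difference between concentrations was itself tested. Among the models named above, the adjusted p of that interaction (edgeR) was 0.00266 in APZ42_016102, APZ42_020222, APZ42_028575 and APZ42_022001, each with its largest change at 0.12 nM Hg/L. It was 0.00506 in APZ42_016054, 0.00581 in APZ42_016991, 0.0130 in APZ42_015452 and 0.0139 in APZ42_010849, also with the largest change at that concentration. It was 0.00551 in APZ42_022036, which was high in some animals of day 17 at 0.12 nM Hg/L and of day 24 at 0.25 nM Hg/L, and 0.0328 in APZ42_004030, whose share of counts was highest in the 3 animals at 0.12 nM Hg/L on day 24. No cause was tested.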

How the results depend on the processing

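The 12 calls averaged over concentrations became 6 with no filter, 6 with the older edgeR fit, 121 in DESeq2, 342 (209 higher, 133 lower) with all 72 exposed libraries fitted, 61 with 2 surrogate variables, 23 with the depth covariate and 208 (116 higher, 92 lower) from group means. They became 0 with either simpler scaling, 0 without 0.06 or 4 nM Hg/L, 3 without 0.12, 0.25 or 1, 23 without 0.015, and 41 (DESeq2) and 3 (limma-voom) without 0.12. Of the 12, 11 were among the 41 and 2 among the 3. The only reversal among them was APZ42_026321 per total count (-0.039). At 0.12 nM Hg/L, APZ42_016054, APZ42_016102, APZ42_020222 and APZ42_028575 reversed per total count (-0.50, -0.89, -1.41 and -0.64).

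The interaction, called in 3.39% of tested models, was called in 0.659% with no filter, 5.15% in DESeq2, 7.98% in limma-voom, 1.12% with the older fit, 5.91% with 72 libraries, 1.81% with surrogate variables, 0.121% with the depth covariate, 1.79% without libraries under 500000 counts, 64.9% per total count and 20.5% per count outside the 5 models. Without 0.06, 0.12 and 4 nM Hg/L the shares were 6.26%, 0% and 2.23%, and without 0.12 DESeq2 gave 0.317% and limma-voom 0%. The slope had 22 calls in DESeq2 (7 without 0.12), 1 with surrogate variables, 1 with the depth covariate, 6 without 0.015 and 4 without 1 nM Hg/L. The 2599 calls within concentrations became 1570 with no filter, 521 with the depth covariate, 9596 and 6253 with the simpler scalings, and 1 without 0.12. The cause of each of these shifts was not tested.

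Leaving out single libraries gave 4 to 47 averaged calls, 1.01% to 5.34% of models for the interaction, 0 for the slope in each case, and 1655 to 2633 within concentrations. The averaged count was 4 without 0.015 day 24 replicate 3 or 1 day 24 replicate 3. It was 5 without day 17 replicate 1 at 0.06, 0.12 or 4, replicate 3 at 0.25, replicate 2 at 1 or 4, or day 24 replicate 2 at 0.12 or replicates 1 or 3 at 4. It was 6 or 7 without day 17 replicates 2 or 3 at 0.06, 3 at 0.12, 1 at 1 or 3 at 4, or day 24 replicates 2 at 0.06, 1 at 0.12, or 2 or 3 at 0.25. It rose to 19 without 0.06 day 24 replicate 1, to 20 and 30 without 0.015 replicate 2 of day 24 and of day 17, to 24 without 4 day 24 replicate 2 and to 47 without 0.25 day 24 replicate 1. The interaction share was 1.01% and 1.26% without 0.12 day 17 replicates 2 and 3, 1.79% without 0.12 day 24 replicate 3, 2.15% without 0.25 day 17 replicate 1 and 5.34% without 0.25 day 24 replicate 2. The count within concentrations was 1655 and 1717 without 0.12 day 17 replicates 2 and 3. APZ42_026976, APZ42_000776, APZ42_017370 and APZ42_020657 were called in every such fit, and the other 8 lost the call in 2 to 26 of 36 fits, with adjusted p up to 0.107. The difference of depth outside the 5 models stayed between -0.13 and 0.01 when single libraries were left out. It ran from -0.25 to 0.16 when whole concentrations were left out, and it passed no test in either case. No paired analysis was possible because replicate numbers follow accession order and no label pairs animals of the 2 days.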
